A study of Arabidopsis thaliana with 19 samples.

Results

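The WRKY transcription factor genes of Arabidopsis thaliana were examined for 4 histone H3 marks in sperm chromatin. The members were the nuclear protein-coding genes whose symbol in the TAIR10.1 gene table is WRKY followed by digits only, which gave 67 genes of 27444. All 67 are in one of the 7 groups into which the family is sorted by its WRKY domains. Another 5 genes of the 72 names in these groups stand in the table under a different symbol (ZAP1 for WRKY1, TTR1 for WRKY16, TTG2 for WRKY44, RRS1 for WRKY52 and ABO3 for WRKY63) and were not members.

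The samples were sperm nuclei of ecotype Col-0, labelled wild type, from plants with a ProHTR10:HTR10-Clover reporter, in which the sperm histone H3.10 is made with a fluorescent tag from its own promoter. Nuclei were isolated by cell sorting and their chromatin was cut to mononucleosomes with micrococcal nuclease. Of the 19 samples, 3 were immunoprecipitations of H3K4me3, 3 of H3K27ac, 2 of H3K27me1, 2 of H3K27me3 and 3 of H3.10, and 6 were inputs in 2 sets of 3. All samples carry the same reporter, and there was no other tissue or genotype to compare with. The data used were the authors' peak lists on TAIR10, a narrow and a broad one for each of the 4 marks, and each list was made over the replicates of 1 mark together. They hold no value per sample, so none of the values below has a replicate error, no test between samples was possible, and the depth is unknown. H3.10 was not analysed here. The sperm genes DUO1, HAP2 and GEX2 each carried H3K4me3 and H3K27ac, at H3K4me3 folds of 5.04, 5.07 and 5.45, but 53.5% of all genes carry both marks, so this is little check of the label.

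WRKY proteins bind DNA through a domain named after its amino acid letters and recognise a short element called the W-box. In Arabidopsis many of them are switched on within minutes of pathogen attack or stress, downstream of MAP kinase cascades, and they control salicylic acid and camalexin defence genes. Others act in development: WRKY2 and WRKY34 in pollen, WRKY2 also in the polarity of the zygote, WRKY10 (MINI3) in endosperm growth and WRKY23 in auxin-dependent patterning. H3K4me3 and H3K27ac are marks found at transcribed genes, H3K27me3 is laid down by Polycomb, and H3K27me1 is known from heterochromatin.

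A gene counted as marked if peaks covered 150 bp or more of it, using the narrow lists for H3K4me3 and H3K27ac and the broad lists for H3K27me1 and H3K27me3. The level given for a gene is the authors' fold, the ratio of immunoprecipitation to control in the highest narrow peak that touches the gene. Most WRKY genes carried H3K4me3 in sperm, with 51 of 67 members (76.1%) against 75.2% of all genes. H3K27ac lay on 37 (55.2%, against 55.9% of all genes). Both shares were near the background. H3K27me1 lay on 10 members (14.9%, against 8.79%) and H3K27me3 on 9 (13.4%, against 4.03%), both above the background, in counts that were not tested. In the narrow lists H3K27me3 lay on 3 members (4.48%, against 1.48%) and H3K27me1 on 22 (32.8%, against 26.9%). In the broad lists H3K4me3 lay on 38 (56.7%, against 60.9%) and H3K27ac on 1, WRKY39 (1.49%, against 0.557%).

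**Figure D1:**
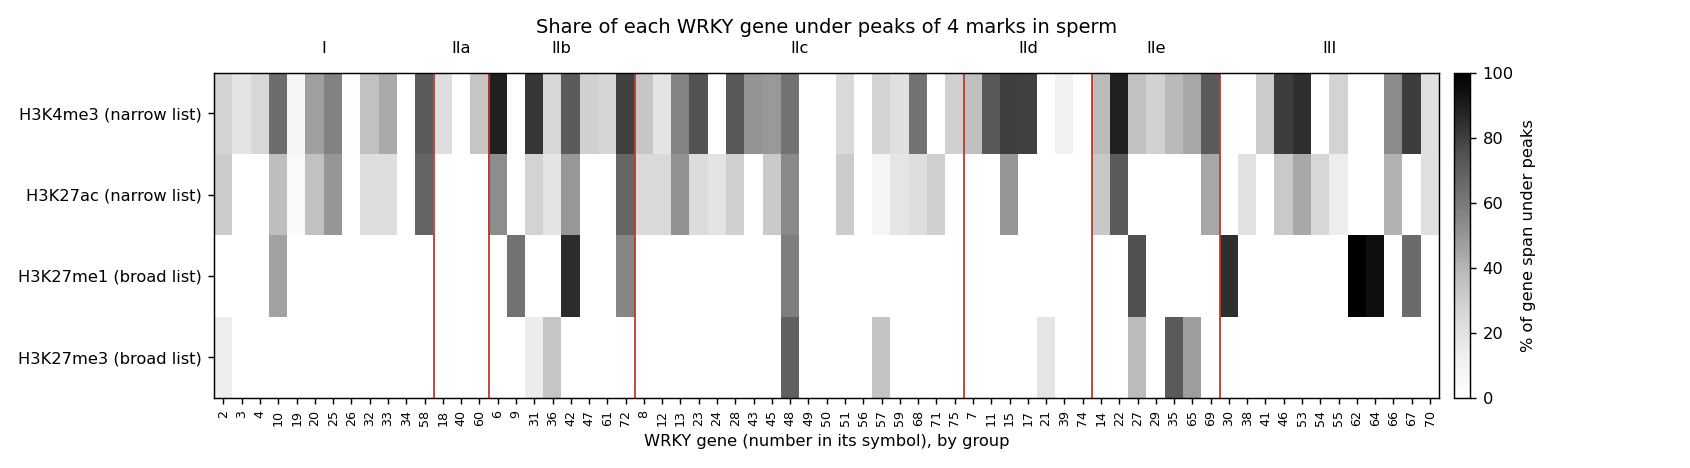
Share of the span of each of the 67 WRKY genes (x axis, by group and number) that lies under peaks of each mark (rows), from 0% in white to 100% in black. H3K4me3 was on 51 genes (75.2% of all genes) and H3K27me3 on 9 (4.03% of all genes). None of the 3 genes of group IIa and the 12 of group III had H3K27me3, and a difference from 4.03% was not tested.

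In the main lists the most frequent combination was H3K4me3 with H3K27ac and no other mark, on 25 members (37.3%, against 48.1% of all genes). These were WRKY6, WRKY8, WRKY12, WRKY13, WRKY14, WRKY15, WRKY19, WRKY20, WRKY22, WRKY23, WRKY25, WRKY28, WRKY32, WRKY33, WRKY45, WRKY46, WRKY51, WRKY53, WRKY55, WRKY58, WRKY59, WRKY66, WRKY68, WRKY69 and WRKY70. Narrow H3K27me1 peaks, which the main lists leave out, lay on WRKY14, WRKY25, WRKY33 and WRKY66. With or without other marks, the pair met on 33 members (49.3%, against 53.5%), and in 32 of these the peaks shared bases. Shared bases were not counted over all genes. H3K4me3 alone, by the main lists, was on 14 members (20.9%, against 18.5%). They were WRKY3 and WRKY4, which act in resistance to necrotrophic fungi, the negative regulators of basal defence WRKY11 and WRKY17, and WRKY7, WRKY18, WRKY29, WRKY39, WRKY41, WRKY43, WRKY47, WRKY60, WRKY61 and WRKY75. Of these 14, WRKY3, WRKY4, WRKY7, WRKY11, WRKY17, WRKY41 and WRKY60 lay under narrow H3K27me1 peaks, and WRKY39 under a broad H3K27ac peak. None of the 4 marks was on 7 members (10.4%, against 19.1%), an order that turned with the other list of each mark (28.4%, against 25.3%).

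The level of H3K4me3 varied widely within the family. Among the 51 marked members the median fold was 3.27, with a range from 1.57 to 6.73, whereas the median over all 20642 genes with H3K4me3 was 4.09. Of the 51, 20 were above that median and 12 were in the range of the upper quartile, at or above 5.14, while 19 were below the lower quartile of 3.01. For H3K27ac the median of the 37 marked members was 1.80, the same as over all 15345 genes with that mark, and the range was 1.42 to 2.23.

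WRKY2 (AT5G56270), the pollen and zygote factor of group I, had the highest H3K4me3 fold of the family at 6.73, and 97.7% of all genes with H3K4me3 had a lower one. Its peak ran on chromosome 5 from 22778811 to 22780671 and reached 803 bp beyond the gene end. H3K27ac on WRKY2 had a fold of 1.89 and covered 1167 bp. WRKY34 (AT4G26440), the pollen-specific factor that acts with WRKY2, carried none of the 4 marks in any of the 8 lists. The nearest H3K4me3 peak to WRKY34 was 1771 bp away and the nearest H3K27ac peak 2081 bp. Of these pollen factors, WRKY2 thus led the family in H3K4me3 fold and WRKY34 was among the members with no H3K4me3 peak.

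WRKY6 (AT1G62300), which acts in senescence and phosphate signalling, had an H3K4me3 fold of 6.70 in a single peak on chromosome 1 from 23016898 to 23019556. It covered 2597 of the 2926 bp of the gene, or 88.8%. Its relative in group IIb, WRKY31 (AT4G22070), had 6.55 and was covered over 2818 bp in 2 peaks, the most bases under H3K4me3 in the family. WRKY42 (AT4G04450), which acts with WRKY6 in phosphate supply, had 4.37 over 2296 bp. WRKY20 (AT4G26640) of group I followed with 2293 bp at a fold of 3.03, and WRKY72 (AT5G15130), a factor of basal defence, with 2241 bp at 3.11, so that broad cover did not go with a high fold in each case. At least 80% of the span lay under H3K4me3 in 7 members (against 9.99% of all genes), which were WRKY6, WRKY15, WRKY22, WRKY31, WRKY46, WRKY53 and WRKY67.

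The other members with a high H3K4me3 fold came from several groups. WRKY58 of group I (AT3G01080) had 6.26 and WRKY23 of group IIc (AT2G47260) had 6.10. WRKY46 of group III (AT2G46400), which acts in immunity and brassinosteroid responses, had 5.71. WRKY32 of group I (AT4G30935) had 5.56 and WRKY15 of group IId (AT2G23320) had 5.52. WRKY22 of group IIe (AT4G01250), a factor downstream of the MAP kinase cascade started by bacterial flagellin, had 5.42, against 2.77 in WRKY29 (AT4G23550), its partner in that pathway. WRKY55 of group III (AT2G40740) had 5.35, while its direct neighbour in the genome WRKY54 (AT2G40750) had no narrow H3K4me3 peak and carried H3K27ac, at 1.71, with a narrow H3K27me1 peak over 486 bp. In the broad list 1454 bp of WRKY54 lay under H3K4me3.

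**Figure D2:**
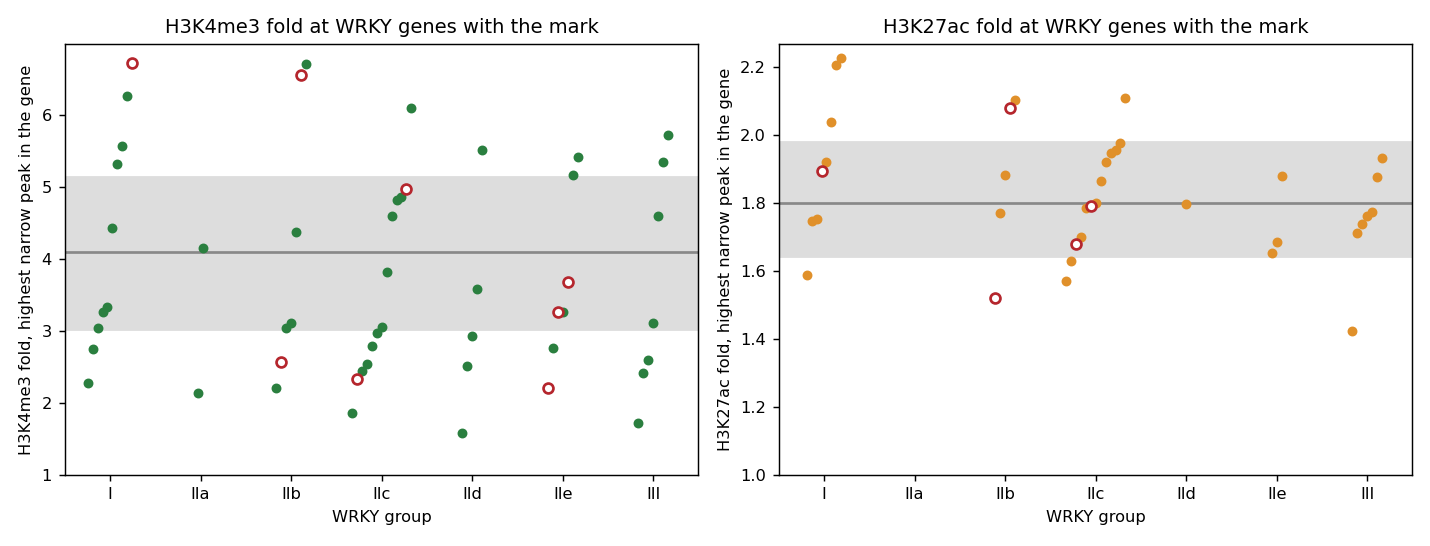
Fold of the highest narrow peak of H3K4me3 (left) and H3K27ac (right) in each WRKY gene with the mark, by group. The grey band and line are the quartiles and the median of all genes with the mark (4.09 for H3K4me3 and 1.80 for H3K27ac), and open red circles are genes that also carry H3K27me3.

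At the low end were WRKY39 (AT3G04670) of group IId with an H3K4me3 fold of 1.57 and WRKY70 (AT3G56400), which balances salicylic acid against jasmonate responses, with 1.73. WRKY45 (AT3G01970), a factor of phosphate uptake, had 1.86, WRKY18 (AT4G31800) had 2.13 and WRKY35 (AT2G34830) had 2.21. WRKY39 was also the member nearest to the 150 bp threshold among those with H3K4me3, with 265 bp under a peak whose summit lay outside the gene, and the next below was WRKY26 with 11 bp. WRKY70 also had the lowest H3K27ac fold of the family, 1.42. WRKY33 (AT2G38470), the main activator of camalexin synthesis, had an H3K4me3 fold of 2.75, and 19.5% of marked genes had a lower one. Its H3K27ac fold was 1.59.

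The highest H3K27ac folds were 2.23 at WRKY58 and 2.21 at WRKY32, followed by 2.11 at WRKY68, 2.08 at WRKY31 and 2.04 at the heat and defence factor WRKY25, with WRKY6 between WRKY68 and WRKY31. WRKY23 had 1.98, the flowering factor WRKY13 1.95, WRKY24 1.95 and the senescence factor WRKY53 1.93. WRKY24 had no H3K4me3, and the other 9 of these genes carried both marks. The highest H3K27ac peaks of WRKY24 and WRKY68 had their summits outside the gene and touched the neighbouring genes AT5G41580 and AT3G62350, and to which gene they belong was not tested. Only 46 bp of the peak of fold 2.11 lay in WRKY68. Its other H3K27ac peak, with 336 bp in the gene, had a fold of 1.81. For H3K4me3 the summit of the highest peak lay outside the gene in 6 marked members, WRKY19, WRKY39, WRKY43, WRKY60, WRKY68 and WRKY75. Counting only genes with a summit inside left 45 members with H3K4me3 (67.2%, against 68.3% of all genes) and 35 with H3K27ac (52.2%, against 53.6%), a count chosen after the values were seen.

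The position of the highest H3K4me3 peak was measured by its summit. The median distance of the summit to the nearest gene end was 450 bp (quartiles 380.5 and 603.5 bp) in the 51 members and 355 bp (quartiles 270 and 502 bp) in all genes with the mark. For H3K27ac these medians were 480 bp in 37 members and 331 bp. Within 500 bp of an end were 60.8% of the H3K4me3 summits of the family, against 74.8% over all genes. The gene table gives no strand, so the start and the end of a gene cannot be told apart. With or without the mark, genes had a median length of 2006 bp in the family and 2078 bp over all genes. For the 51 members with H3K4me3 the median was 2288 bp. The length of all genes with the mark is not given here, and a link of length with these distances was not tested.

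The marks were then counted by group, to be read against the 75.2% of all genes with H3K4me3, 55.9% with H3K27ac and 26.9% with narrow H3K27me1. In group I, with a pair of WRKY domains in most members, 10 of 12 carried H3K4me3 and 8 of 12 H3K27ac. All 7 members of group IIe carried H3K4me3, and 3 of them H3K27ac. In group IId, whose proteins bind calmodulin, 5 of 7 carried H3K4me3 and 1 H3K27ac, which was WRKY15, while 5 of 7 lay under narrow H3K27me1 peaks. In group IIa, the immune regulators WRKY18, WRKY40 and WRKY60, no member carried H3K27ac. WRKY60 (AT2G25000) had an H3K4me3 fold of 4.14 in a peak shared with its neighbour AT2G25010, and WRKY40 (AT1G80840) had no H3K4me3, its nearest peak being 1202 bp away. In group IIb 7 of 8 members carried H3K4me3 and 5 of 8 H3K27ac, and in group IIc 13 of 18 carried each. Group III had the lowest share with H3K4me3 of the 7 groups, 7 of 12, and also 7 of 12 with H3K27ac. With 3 to 18 genes a group, these counts are descriptions and were not tested.

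H3K27me3 was found on WRKY2, WRKY21, WRKY27, WRKY31, WRKY35, WRKY36, WRKY48, WRKY57 and WRKY65. Most genes with H3K27me3 also carried H3K4me3, 864 of 1105 over all genes. Of the 9 members, 8 did so (both marks on 11.9% of the family, against 3.15% of all genes). The exception was WRKY21 (AT2G30590), with 438 bp of H3K27me3 on chromosome 2 from 13034315 to 13034752, the smallest overlap counted. In the 8 genes the bases under H3K27me3 and H3K4me3 overlapped, from 248 bp in WRKY57 to 1339 bp in WRKY48. This overlap was not counted over all genes. The lists pool nuclei and replicates, so whether the marks sat on the same nucleosomes cannot be told. Of the 9 peaks, 8 lay wholly inside the gene (88.9%, against 64.0% of all pairs of a broad H3K27me3 peak and a gene it touches).

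**Figure D3:**
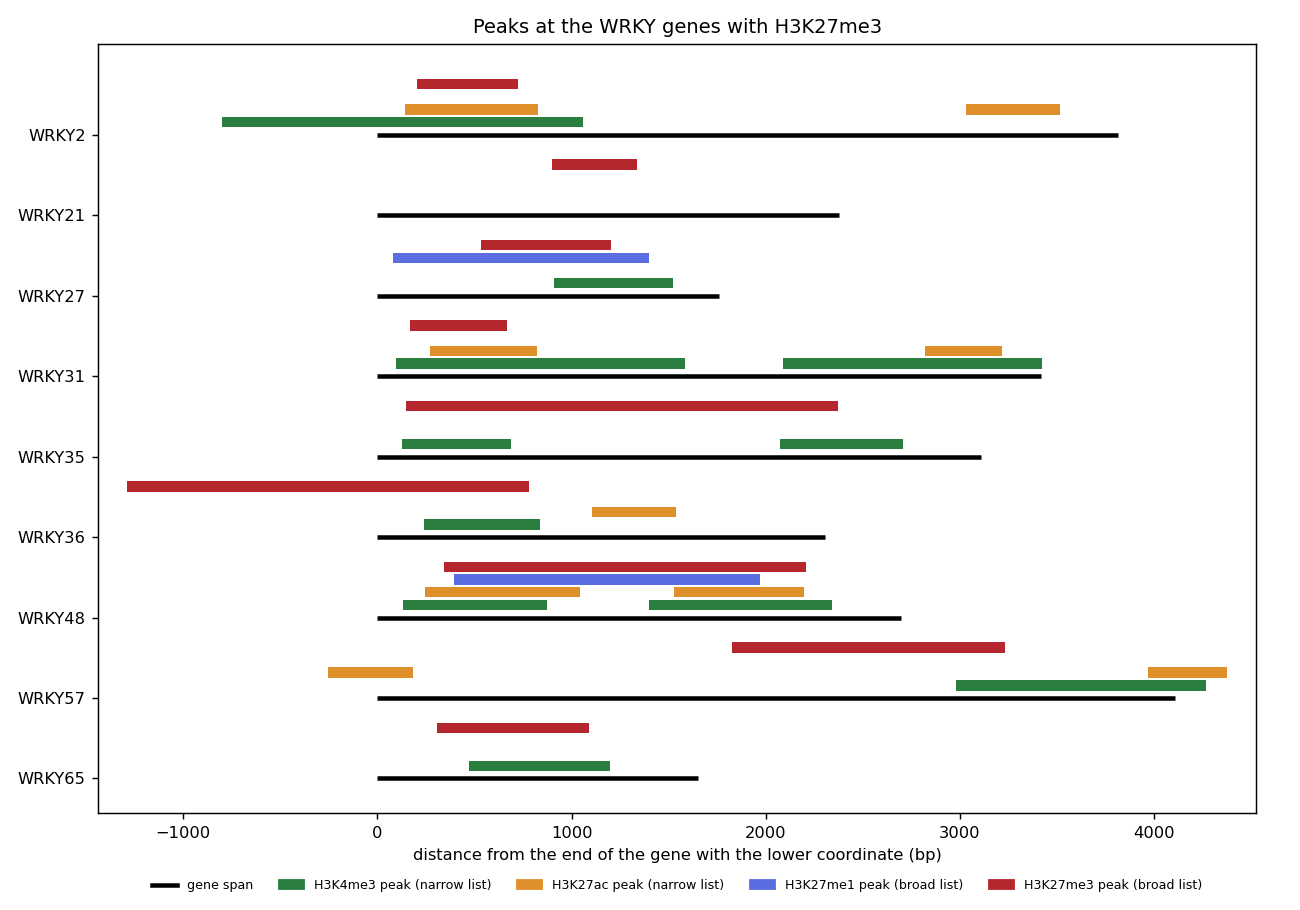
Peaks of the 4 marks at the 9 WRKY genes with H3K27me3, drawn against the gene span (black), with distance in bp from the gene end of lower coordinate. The H3K27me3 peak (red) overlaps an H3K4me3 peak (green) in 8 of the 9 genes, all but WRKY21. Overlap was not counted over all genes.

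The 3 members with H3K27me3 in the narrow list as well were WRKY48, WRKY65 and WRKY31. WRKY48 (AT5G49520), a repressor of basal defence, had a narrow fold of 4.37 on chromosome 5 from 20091063 to 20091539, and its broad peak covered 1868 of the 2699 bp of the gene. It was the member with all 4 marks, a combination found on 0.186% of all genes, and its H3K4me3 fold was 4.97. WRKY65 (AT1G29280) had a narrow H3K27me3 fold of 4.05 on chromosome 1 from 10236760 to 10237377, overlapping an H3K4me3 peak of fold 3.68. WRKY31 had 3.81 on chromosome 4 from 11691392 to 11691808. Over all narrow H3K27me3 peaks the median fold was 4.55, so these 3 were below it. None of the 3 peaks touched another protein-coding gene.

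The other 6 had H3K27me3 in the broad list only. The widest was on WRKY35, which the gene table also names MEE24 (maternal effect embryo arrest 24), with 2225 of 3108 bp on chromosome 2 from 14693844 to 14696068. It reached from one H3K4me3 peak to the other of the gene, whose highest fold was 2.21, and no H3K27ac peak touched the gene. WRKY57 (AT1G69310), which acts in drought and senescence responses, had 1405 bp under H3K27me3 and an H3K4me3 fold of 2.34. WRKY36 (AT1G69810), a repressor of HY5 in light signalling, had 782 bp, and its peak on chromosome 1 from 26275660 to 26277729 also touched the neighbour AT1G69800. WRKY27 (AT5G52830), which acts in bacterial wilt, had 669 bp, together with H3K27me1 and an H3K4me3 fold of 3.27. On WRKY2 the H3K27me3 peak of 517 bp, on chromosome 5 from 22779820 to 22780336, lay entirely under the H3K4me3 peak. For 2 of the 9 broad peaks, at WRKY27 and WRKY57, the deposited q value was under 0.05. Most of the broad H3K27me3 list was likewise above that limit, with 1047 of all its 1423 peaks over 0.05. Folds in the broad H3K27me3 list did not follow those of the narrow peaks inside them (Spearman's rho −0.0468 over 457 broad peaks, a description). The same held for H3K27me1 (rho −0.151 over 1795 broad peaks). Whether a broad q belongs to its coordinates was not tested, and the broad q was not used to rank the genes.

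The H3K27me1 lists named partly different members. The 10 members in the broad list were WRKY9, WRKY10, WRKY27, WRKY30, WRKY42, WRKY48, WRKY62, WRKY64, WRKY67 and WRKY72. They included 4 of 12 genes of group III and 3 of 8 of group IIb, against 8.79% of all genes, which was not tested. WRKY62 (AT5G01900), a negative regulator of defence, was covered over all of its 1171 bp, and WRKY64 (AT1G66560) over 1217 of 1284 bp by a peak of 5222 bp that also touched SUC7. WRKY67 (AT1G66550), next to WRKY64 in the genome, had 758 bp under H3K27me1 beside an H3K4me3 fold of 2.60. WRKY30 (AT5G24110) had 1349 bp, WRKY9 (AT1G68150) had 1152 bp and WRKY42 had 2742 bp, the most in the family. WRKY10 (AT1G55600), the endosperm factor, had 1032 bp of H3K27me1, all of it under an H3K4me3 peak of fold 3.27, and an H3K27ac fold of 1.75. WRKY72 had 1557 bp, of which 1093 bp were shared with H3K4me3. The broad folds of the 10 members were low, from 1.02 at WRKY30 to 1.27 at WRKY48, with a median of 1.09 over that whole list. WRKY42, WRKY64, WRKY67 and WRKY72 had no narrow H3K27me1 peak.

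The narrow H3K27me1 list named 22 members, and 6 of these were also in the broad list. By group they were 5 of 12 in group I, 2 of 3 in IIa, 1 of 8 in IIb, 1 of 18 in IIc, 5 of 7 in IId, 2 of 7 in IIe and 6 of 12 in III. The share over all genes was 26.9%, and differences from it were not tested. Their narrow peaks lay in the gene bodies, 20 of 23 wholly inside the gene (87.0%, against 67.5% of pairs over all genes). The highest narrow H3K27me1 folds were 2.77 at WRKY62, 2.61 at WRKY21, 2.42 at WRKY38 and 2.34 at WRKY7. Over all genes, 4531 of the 7370 with narrow H3K27me1 also carried H3K4me3. H3K4me3 was on 14 of the 22 members (20.9% of the family had both marks, against 16.5% of all genes). In 9 of these 14 the peaks shared bases, as in WRKY7 with 758 bp, WRKY25 with 930 bp and WRKY33 with 518 bp. In the other 5 (WRKY3, WRKY4, WRKY27, WRKY41 and WRKY66) they lay apart along the gene. Neither count was made over all genes.

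**Figure D4:**
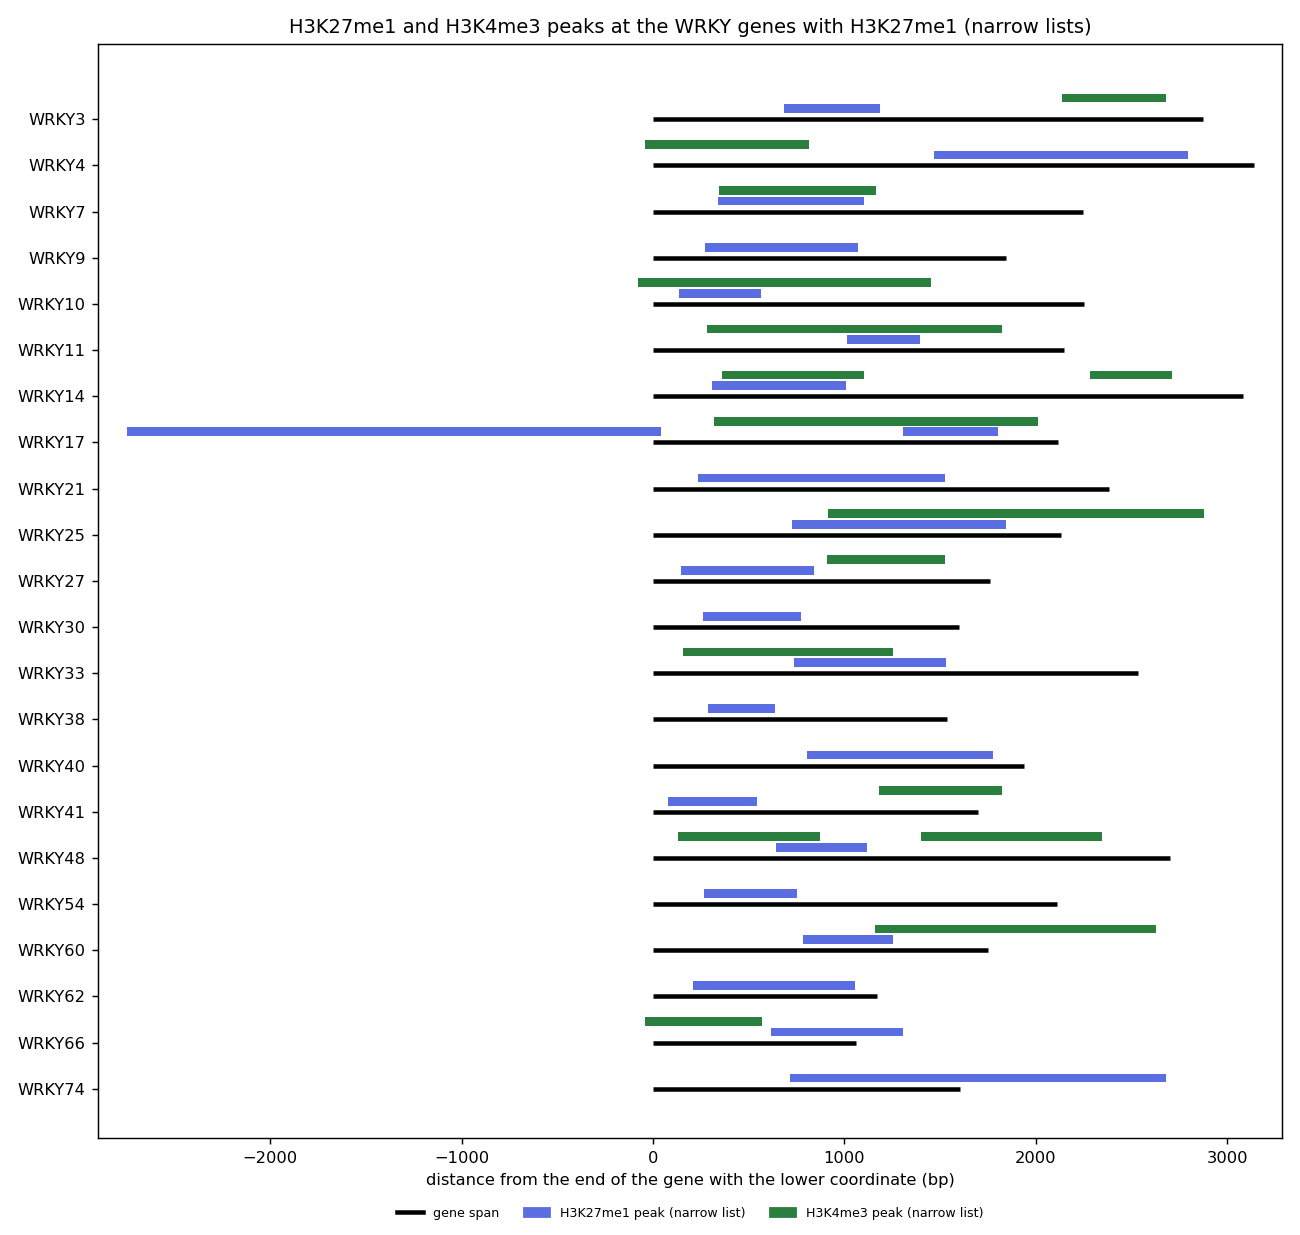
Narrow peaks of H3K27me1 (blue) and H3K4me3 (green) at the 22 WRKY genes with narrow H3K27me1, against the gene span (black), with distance in bp from the gene end of lower coordinate. In 8 genes there is no H3K4me3 peak, in 9 the peaks share bases and in 5 they lie apart. Whether peaks share bases was not counted over all genes.

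The 16 members without H3K4me3 were WRKY9, WRKY21, WRKY24, WRKY26, WRKY30, WRKY34, WRKY38, WRKY40, WRKY49, WRKY50, WRKY54, WRKY56, WRKY62, WRKY64, WRKY71 and WRKY74. Their median length was 1678 bp, against 2288 bp in the 51 with the mark. Lengths of all genes with and without the mark are not given here, and a link was not tested. Narrow H3K27me1 peaks lay on 8 of the 16 (11.9% of the family, against 10.3% of all genes) and on 14 of the 51. H3K27ac without H3K4me3 was on 4 of them (5.97% of the family, against 2.38% of all genes), which were WRKY24, WRKY38, WRKY54 and the shoot branching factor WRKY71. The nearest H3K4me3 peak was at a median of 1946 bp, and within 1000 bp in 4 of the 16. It was farthest from WRKY74 (AT5G28650), at 35060 bp, where the nearest H3K27ac peak was 62891 bp away and 890 bp of the gene lay under narrow H3K27me1.

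With none of the 4 marks were WRKY26, WRKY34, WRKY40, WRKY49, WRKY50, WRKY56 and WRKY74. Of these, WRKY40 and WRKY74 carried H3K27me1 in the narrow list, at folds of 2.16 and 2.30. WRKY49 (AT5G43290) and WRKY56 (AT1G64000) had their nearest H3K4me3 peaks 2801 and 1912 bp away. WRKY26 (AT5G07100) had 11 bp under the edge of an H3K4me3 peak on its neighbour PRA1.B6. WRKY50 (AT5G26170), which acts in jasmonate repression, had its nearest H3K4me3 peak 660 bp away, while its relative WRKY51 (AT5G64810) carried both active marks at folds of 2.54 and 1.87.

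Genes that act with WRKY factors were counted in the same way. All 15 kinases upstream of WRKY factors carried H3K4me3 (75.2% of all genes) and 9 carried H3K27ac (60.0%, against 55.9%), and the median H3K4me3 fold was 3.76. None was under broad H3K27me1 or H3K27me3 (8.79% and 4.03% of all genes), but 7 of the 15 lay under narrow H3K27me1 (46.7%, against 26.9%). Their highest H3K4me3 folds were 6.55 at the calcium-dependent kinase CPK11 (CDPK2 in the table), 5.94 at MKK9 and 5.80 at MKK4. MPK6 and MPK3, the MAP kinases that phosphorylate WRKY33 and WRKY34, had 4.58 and 3.32. Of 17 salicylic acid and camalexin genes 16 carried H3K4me3 (94.1%, against 75.2%) and 10 H3K27ac (58.8%, against 55.9%). Under broad H3K27me1 were 4 of them (SAG101, EDS5, PBS3 and WAK1; 23.5%, against 8.79%), and under narrow H3K27me1 10 (58.8%, against 26.9%). Their median H3K4me3 fold was 2.91. Isochorismate synthase ICS1 (EDS16), the enzyme of salicylic acid synthesis, had an H3K4me3 fold of 5.79, EDS5 had 5.45 and PAD4 5.10, while NDR1 carried none of the 4 marks in the main lists and had 454 bp under narrow H3K27me1. Of 8 proteins that bind WRKY factors and were found in the gene table, 7 carried H3K4me3 (87.5%, against 75.2%) and 5 H3K27ac (62.5%, against 55.9%), at a median H3K4me3 fold of 4.09, with the highest folds at SIB2 (5.51), VQ9 (5.30) and SIB1 (4.39). SIB1, a partner of WRKY33, was the one with H3K27me3 (12.5%, against 4.03%), over 395 bp in the broad list and without a narrow peak. Under narrow H3K27me1 lay 2 of the 8 (26.9% of all genes). IKU1, the VQ partner of WRKY10 in endosperm growth, carried none of the 4 marks.

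Among the 5 WRKY genes under other symbols, 4 carried H3K4me3 (75.2% of all genes) and 3 H3K27ac (55.9% of all genes). The H3K4me3 folds ran from 1.62 at the trichome and seed coat factor TTG2 to 4.51 at TTR1. None of the 5 carried H3K27me3 (4.03% of all genes), and differences from all genes were not tested. ABO3 had no H3K4me3 and 1170 bp under broad H3K27me1.

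The NAC and MYB families of the same gene table were set beside the WRKY family, without a test. H3K4me3 was on 59 of 81 NAC genes (72.8%) and on 58 of 115 MYB genes (50.4%), with median folds of 3.38 and 2.99 in the marked genes, so that all 3 families had medians under the 4.09 of all marked genes. H3K27me3 was on 8 NAC genes (9.88%) and 18 MYB genes (15.7%). H3K27me1 was on 13.6% of NAC and 13.9% of MYB genes, near the 14.9% of the WRKY family, but in the narrow list on 35.8% of NAC and 45.2% of MYB genes, against 32.8% of WRKY genes.

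**Figure D5:**
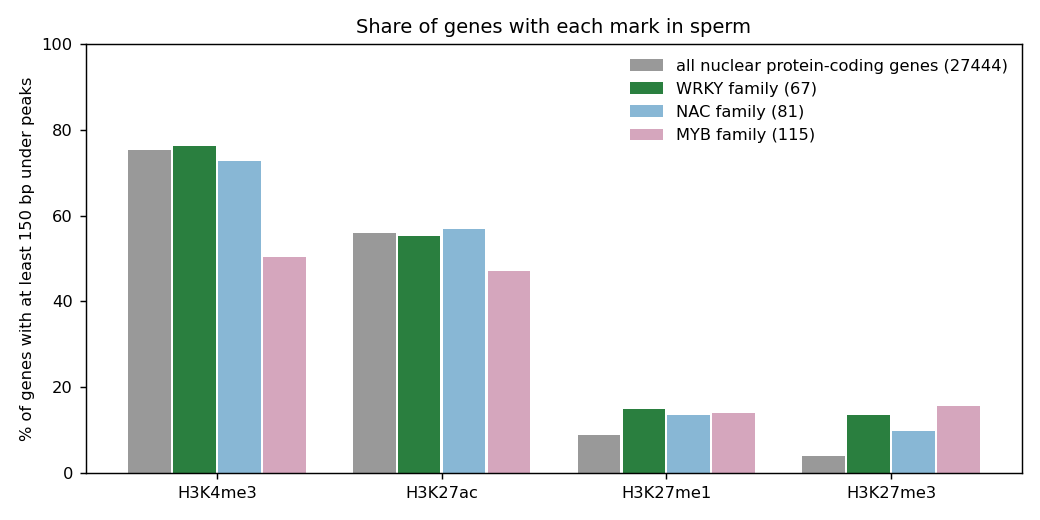
Percentage of genes with at least 150 bp under peaks of each mark, for all 27444 nuclear protein-coding genes and the WRKY, NAC and MYB families (bars from 0). H3K27me3 was on 13.4% of WRKY, 9.88% of NAC and 15.7% of MYB genes, against 4.03% of all genes.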

How the data were processed

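Per the submitters' processing notes, the build was TAIR10, and the tools included MACS2 2.1.0 for which no role is stated, Bowtie2 2.1.0, deepTools 2.5.0.1, SAMtools 1.3, Trim Galore 0.4.1, bedtools and Picard. The sources used here give no settings. The deposited peak lists give, per the file columns and as the authors' values, a fold (ratio) per peak and a −log10 q. The narrow lists also give a summit offset in bp.

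Peak starts were changed to counts from 1. Bases of each gene under merged peaks were counted with Python 3.11.15, numpy 2.4.6 and pandas 2.3.3, and the count was checked on simulated peaks. The gene table is of TAIR10.1, without strand, and its coordinates are not printed. Moving the H3K4me3 summits in 250 bp steps over 5000 bp to either side gave a best offset of 0 bp on all 5 chromosomes. Figures were drawn with matplotlib 3.10.9.

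Members, gene lists and the rule for named genes were chosen with earlier results of these data known. Genes were named when they had H3K27me3, broad H3K27me1 or none of the 4 marks, were among the 10 highest or 5 lowest in H3K4me3 fold, the 10 highest in H3K27ac fold or the 5 with the most bases under H3K4me3, or were known pollen, endosperm, epidermis or immune factors. In the other lists they were those with H3K27me3, those without H3K4me3 and the 3 of highest H3K4me3 fold. Other genes named were chosen after their values were seen. The WRKY partner list lost 2 members (VQ10 and VQ20) not matched in the gene table. A planned search of promoters for the W-box was not run, as no sequence was used here.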

Additional observations from a re-analysis of the deposited data

How the results depend on the processing

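Of 46 recounts of the 7 main counts under other settings, 31 stayed within 1.5 times and 15 did not; shares of all genes are in parentheses. With the other list of each mark, H3K27ac was on 1 WRKY gene (0.557%), H3K27me1 on 22 (26.9%), H3K27me3 on 3 (1.48%), H3K4me3 with H3K27ac on 1 (0.350%) and H3K4me3 with H3K27me3 on 2 (0.958%). None of the 4 marks was then on 19, or 28.4% (25.3%), where the main lists gave 10.4% (19.1%). With narrow lists of all 4 marks, H3K4me3 with H3K27me3 was on 3 (1.21%). With −log10 q of at least 5, H3K27me1 was on 2 (1.97%), H3K27me3 on 1 (0.233%), H3K4me3 with H3K27me3 on 1 (0.179%) and none of the marks on 13 (23.6%). For H3K27me1 and H3K27me3 this selects by the broad-list q, and whether that q belongs to its coordinates was not tested. With at least 500 bp, H3K27ac was on 22, or 32.8% (32.7%), H3K4me3 with H3K27ac on 20, or 29.9% (31.4%), and none of the marks on 17, or 25.4% (28.4%). Within 500 bp of gene ends, H3K4me3 with H3K27me3 was on 5 (2.54%). The narrow-list and summit recounts were chosen after the data were seen, and the cause of these changes was not tested. H3K4me3 stayed between 38 and 53 genes. No paired analysis was possible because the replicates of a mark are pooled in its list, and no replicate could be left out for the same reason.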
